A study of Mus musculus with 19 samples.

Results

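The interaction of dietary Mg2+ and fat in epididymal white adipose tissue (eWAT) is the difference between a pair of Mg2+ effects. For each gene it was computed as LowMg-HFD minus NormMg-HFD, less LowMg-LFD minus NormMg-LFD, on group means of log2(FPKM + 1). FPKM is a fragment number per gene that takes account of the length of the transcript and the size of the library. All 19 libraries of the series enter it, and every value was also taken over 18 libraries, without LowMg-HFD replicate 4. Of 24237 genes, 8336 had a mean FPKM over 8 in a diet group with at least 4 mice of that group over 8, and these were tested.

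The mice were male C57BL6/J of unaltered genotype, 9 to 10 weeks old when they were allocated to a diet, which they ate for 17 weeks. NormMg-LFD mice (n = 4) and LowMg-LFD mice (n = 5) took 10% of their energy as palm oil. In the NormMg-HFD group (n = 5) and the LowMg-HFD group (n = 5) this share was 60%. Normal diets held 0.21% MgO by weight and low diets 0.03%, so that no group was fed without Mg2+. Each library came from the eWAT of 1 mouse.

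Adipose tissue that expands on an HFD takes in macrophages, which gather around failing adipocytes, turn over their lipid in lysosomes and express receptors for complement and antibodies. At the same time adipocytes tend to lose the expression of their own enzymes and secreted factors. Mg2+ is the cofactor of ATP in kinase reactions, and cells take it up through channels such as TRPM7. The design asks whether the response of eWAT to dietary fat depends on the Mg2+ content of the diet. In bulk tissue, fewer cells of a type and less RNA in each such cell cannot be told apart.

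Depth was even, with 12986441 to 13027028 reads per mouse and 86.12% to 90.41% of them mapped. Adipoq, which encodes adiponectin of adipocytes, stood at 1072 to 2569 FPKM across the mice, and Plin1, the lipid droplet coat of adipocytes, at 540.1 to 1189 FPKM. Genes of other tissues stood high in 5 mice, by a summed FPKM over 10 times that of the lowest mouse of the group. In LowMg-HFD replicate 4 the 16 testis genes summed to 4024 FPKM (next highest 59.4) and the 17 epididymis genes found in the table to 33.3 FPKM (next highest 1.65). In NormMg-LFD replicate 3 the 24 exocrine pancreas genes summed to 2298 FPKM (next highest 24.1), and in LowMg-LFD replicate 4 the epididymis genes summed to 195.7 FPKM (next highest 2.91). In NormMg-LFD replicates 4 and 5 the testis genes summed to 842.9 and 808.3 FPKM, against 74.0 and 28.9 in the other NormMg-LFD mice. LowMg-LFD replicate 1, at 200.1 FPKM of testis genes (69.6 or less in the other mice of its group), did not reach this limit. The pancreas genes summed to 24.6 to 51.4 FPKM in the LowMg-HFD mice, so that none of these 5 libraries stood out for pancreas, the tissue for which the study left out a LowMg-HFD mouse. LowMg-HFD replicate 4 was left out here for its testis transcripts, and whether it is the mouse that the study left out cannot be told from the sources used here. Of these 3 lists, 1 pancreas gene, 1 testis gene and no epididymis gene passed the filter on low values.

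The interaction passed the threshold (limma, Benjamini-Hochberg adjusted p under 0.05) in 104 of the 8336 genes, 1.25% of those tested. It was above 0 in 41 genes (0.492%) and below 0 in 63 (0.756%). Of the 104 genes, 20 belong to the gene lists described here, among them 4 pan-macrophage genes below 0 and 1 endothelial gene above 0. The calls lie close to the threshold: the smallest adjusted p was 0.0343, and 87 of the 104 had an adjusted p of 0.04 or more. Over 18 mice, without LowMg-HFD replicate 4, 34 genes passed (0.408%), 23 above and 11 below 0, and 29 of them, 20 above and 9 below 0, were also among the 104. Unadjusted p values under 0.05 were found for 1698 genes (20.4%), 781 above 0 (9.37%) and 917 below 0, over 19 mice and for 1661 genes (19.9%), 9.78% of those tested above 0 and 10.1% below 0, over 18.

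The estimates moved less than the calls. All 104 genes kept their sign in each of the 19 fits that left out a mouse, and no estimate fell below 0.842 of its value with every mouse in. The 104 genes were chosen on these same mice, which favours a kept sign in this and the later fits, so that it is a description only. The number of genes past the threshold, however, ran from 0 to 476. It was 0 in 8 of the 19 fits: those without LowMg-HFD replicate 3 or 5, LowMg-LFD replicate 5, NormMg-HFD replicate 1, 3 or 4, or NormMg-LFD replicate 2 or 3. It was 435 and 476 without LowMg-HFD replicates 1 and 2, 318 without NormMg-HFD replicate 5 and 192 without LowMg-LFD replicate 1. No gene was called in more than 10 of the 19 fits. In those fits 1388 to 1821 genes had an unadjusted p under 0.05. Fits without mice that stood high in genes of another tissue were added once the data had been seen. Without LowMg-HFD replicate 4, NormMg-LFD replicate 3 and LowMg-LFD replicate 4, limma gave 0 calls, 1428 genes with an unadjusted p under 0.05, and the same sign for all 104 genes. Without NormMg-LFD replicates 4 and 5 as well, it gave 0 calls, 1003 genes with an unadjusted p under 0.05 and the same sign for all 104 genes, with estimates down to 0.512 of their value with every mouse in. In that fit NormMg-LFD replicate 2 stood alone for its group and was taken to vary like the other groups.

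**Figure D1:**
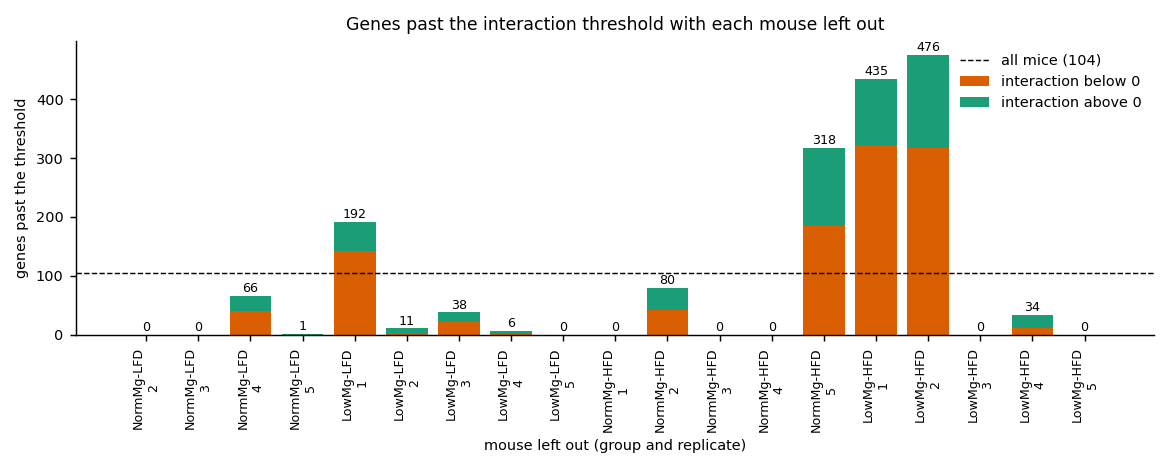
Genes past the threshold of the interaction (y axis, number of genes) in fits that leave out the mouse named on the x axis. Bars are split by the sign of the interaction and the dashed line marks the 104 genes with all mice in. Counts ran from 0 to 476.

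Each interaction can be read from its parts. Over the 8336 genes, low Mg2+ changed 1542 genes on the HFD (18.5%; 5.58% higher and 12.9% lower) and 0 on the LFD (limma, 547 with an unadjusted p under 0.05), and the differences had an SD over genes of 0.396 on the HFD and 0.221 on the LFD. These differences come from separate mice, and across genes their Pearson r was -0.005 (0.029 over 18 mice), a description over points that share libraries. The HFD changed 3114 genes on normal Mg2+ (37.4%; 24.6% higher and 12.8% lower) and 1329 on low Mg2+ (15.9%; 12.4% higher and 3.51% lower), and the SD of the fat responses was 0.659 and 0.376. The fat responses, again from separate mice, had an r of 0.745 (0.766 over 18 mice). The response to fat thus had a smaller spread over genes on the low Mg2+ diets. The split of these calls depended on the scaling of the mice. For Mg2+ on the HFD 465 of 1542 genes were higher, against 649 of 1498 with median centring of the mice and 786 of 1664 after quantile normalization. For fat on normal Mg2+ 2048 of 3114 were higher, against 1580 of 3152 and 1499 of 3195, and for fat on low Mg2+ 1036 of 1329, against 593 of 1124 and 549 of 1079. Relative to the values without scaling, the median fat response over all genes was shifted by -0.10 and -0.12 on normal Mg2+ and by -0.11 and -0.12 on low Mg2+, and the median interaction by less than 0.01.

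This smaller size was seen also when genes were picked on the low Mg2+ diets, where picking by size favours the low Mg2+ response. Of 201 genes more than 1 log2 unit higher in LowMg-HFD than in LowMg-LFD mice, the median difference was 1.29 there and 2.11 on normal Mg2+, and 72.6% had the larger rise on normal Mg2+. Of 47 genes more than 1 log2 unit lower, the medians were -1.26 and -1.42. Picked on normal Mg2+, 586 genes had medians of 1.53 there and 0.757 on low Mg2+, and 209 lower genes had -1.35 and -0.524. Without LowMg-HFD replicate 4 the 235 genes picked on low Mg2+ had medians of 1.31 there and 2.10 on normal Mg2+.

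**Figure D2:**
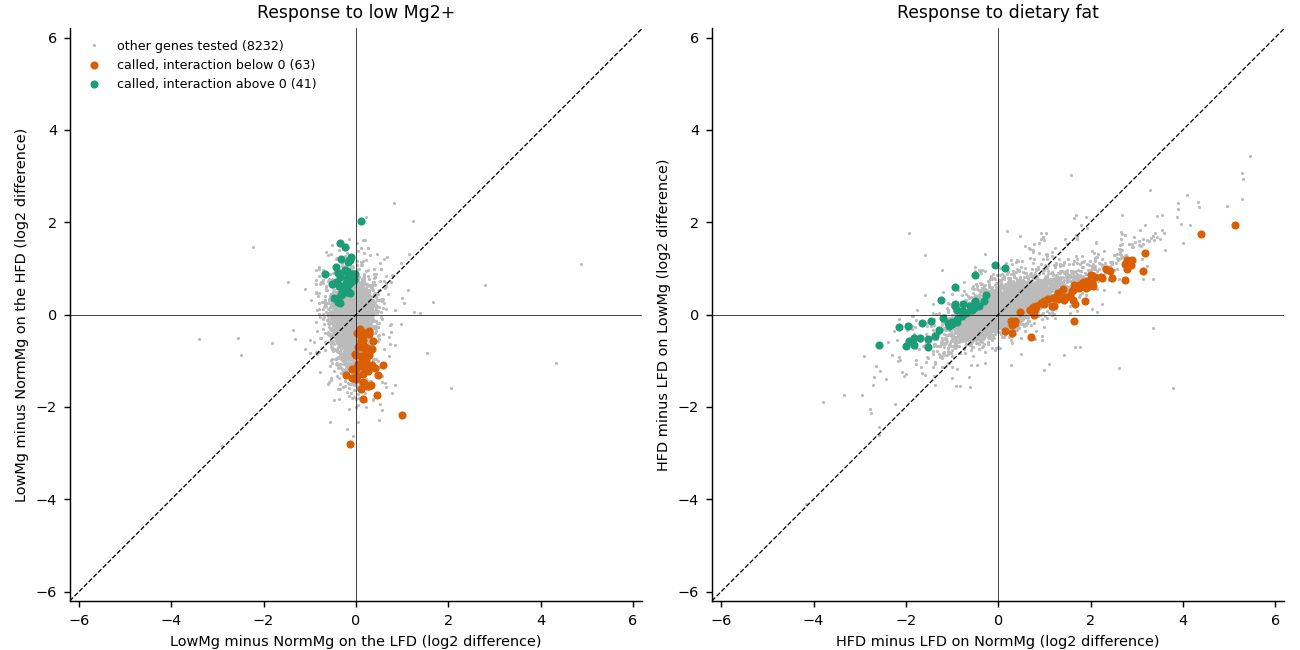
Left, the log2 difference of LowMg minus NormMg on the LFD (x axis) and on the HFD (y axis). Right, the log2 difference of HFD minus LFD on normal (x axis) and low Mg2+ (y axis). Points are the 8336 genes, those past the interaction threshold are coloured by sign, and equal responses lie on the dashed line. In the left panel the spread is larger along the HFD axis (SD 0.396 against 0.221), and in the right panel along the normal Mg2+ axis (0.659 against 0.376).

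The 63 genes below 0 had a median interaction of -1.11 (-1.06 over 18 mice). Their median effect of low Mg2+ was -0.98 on the HFD and 0.16 on the LFD, and their median fat response was 1.61 on normal and 0.42 on low Mg2+. The 41 genes above 0 had a median interaction of 0.96 (0.97 over 18 mice), with Mg2+ effects of 0.72 on the HFD and -0.23 on the LFD and fat responses of -0.94 on normal and -0.06 on low Mg2+. These contrasts share mice with the interaction, so that their signs are not independent of the choice of the genes. Of the 63 genes, 44 passed the filter on low values in all 4 groups and 12 passed it only in NormMg-HFD mice, where they stood highest. Among these 12 are Rgs1, Tph2, Stap1, Basp1, Igf2bp2 and Mcm5, and passing through that group alone favours an interaction below 0.

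Averaged over the 63 genes, log2(FPKM + 1) was 4.39, 4.38, 4.52 and 4.39 in NormMg-LFD replicates 2 to 5 and 4.42, 4.68, 4.502, 4.74 and 4.64 in LowMg-LFD replicates 1 to 5. It was 6.23, 5.97, 6.33, 6.08 and 5.79 in NormMg-HFD mice and 5.46, 5.44, 4.82, 4.79 and 4.91 in LowMg-HFD mice. The LowMg-HFD mice thus lay between the LFD mice and the NormMg-HFD mice without overlap, with replicates 1 and 2 nearer to the NormMg-HFD mice and replicates 3, 4 and 5 nearer to the LFD mice. Averaged over the 41 genes above 0, the level was 5.15 to 5.29 in NormMg-LFD mice, 4.76 to 5.06 in LowMg-LFD mice, 3.86 to 4.45 in NormMg-HFD mice and 4.75 to 5.17 in LowMg-HFD mice. Here the LowMg-HFD mice stood at the level of the LFD mice, and all NormMg-HFD mice stood below every other mouse. The genes were chosen on these mice, and the levels are a description.

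The called genes also spread more within the HFD groups. The median SD over mice of the 63 genes was 0.152 in NormMg-LFD, 0.220 in LowMg-LFD, 0.253 in NormMg-HFD and 0.317 in LowMg-HFD mice (0.318 without replicate 4), against 0.195, 0.209, 0.177 and 0.209 over all genes tested. LowMg-HFD replicate 4 deviated from its group mean by 0.402 (root mean square over genes), the most of any mouse, and without it the median SD of the group over all genes was 0.172.

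Among the called genes, Rgs1 and Tph2 had the largest interactions below 0. Both passed the filter on low values only in NormMg-HFD mice, which favours an interaction below 0. Larger estimates of 3 predicted or unnamed genes, -5.38 to -3.64, did not pass (adjusted p = 0.0679 to 0.389). Nor did Atp6v0d2, at -2.78 (limma, adjusted p = 0.0551), which lay between Rgs1 and Tph2. Rgs1 (chromosome 1, 144242296-144249242, minus strand, GRCm38), which limits signalling by G protein-coupled chemokine receptors, stood at 0.13, 1.39, 0.14 and 0.13 FPKM in NormMg-LFD replicates 2 to 5. In LowMg-LFD replicates 1 to 5 it was 1.14, 3.66, 0.52, 2.77 and 1.72 FPKM, in NormMg-HFD mice 61.1, 35.3, 54.4, 62.1 and 29.85, and in LowMg-HFD mice 32.05, 18.98, 4.08, 6.45 and 4.14. Both HFD groups were above every LFD mouse, and the LowMg-HFD group reached into the NormMg-HFD range only by replicate 1. The interaction was -3.18 ± 0.66 (SE; limma, adjusted p = 0.0447) and -3.06 over 18 mice (adjusted p = 0.0563). On the LFD most values lay near or under the pseudocount of 1, where the log2 scale compresses differences.

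Tph2 (chromosome 10, 115078641-115185022, minus strand), the tryptophan hydroxylase known from serotonin neurons, stood under 1 FPKM in all 9 LFD mice. In NormMg-HFD replicates 1 to 5 it was 28.65, 38.3, 46.5, 31.65 and 25.85 FPKM, and in LowMg-HFD replicates 1 to 5 it was 3.46, 12.8, 0.91, 5.59 and 2.93. The HFD groups did not overlap, and 1 LowMg-HFD mouse stood at the level of the LFD mice. The interaction was -2.66 ± 0.51 (adjusted p = 0.0343; -2.76 and 0.0372 over 18 mice).

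Stap1 (chromosome 5, 86071746-86106125, plus strand), an adaptor of tyrosine kinase signalling in blood cells, was 1.56, 1.15, 0.76 and 1.03 FPKM in NormMg-LFD mice and 1.31, 2.49, 1.61, 2.40 and 1.89 in LowMg-LFD mice. On the HFD it was 23.1, 15.8, 21.04, 23.5 and 9.22 FPKM with normal Mg2+ and 12.3, 5.98, 5.56, 1.35 and 2.84 with low Mg2+, so that the HFD groups overlapped in 1 mouse of each. Its interaction was -2.20 ± 0.50 (adjusted p = 0.0447; 0.0563 over 18 mice). Basp1 (chromosome 15, 25363277-25413764, minus strand), a membrane-attached signalling protein, was 1.61 to 3.63 FPKM in NormMg-LFD and 2.13 to 4.47 in LowMg-LFD mice. In NormMg-HFD mice it was 26.9, 17.7, 33.2, 21.5 and 18.8 FPKM and in LowMg-HFD mice 10.7, 10.3, 2.80, 3.81 and 4.66, without overlap. Replicates 3 and 4 of the last group lay within the range of the LFD mice, and the interaction was -1.99 ± 0.43 (adjusted p = 0.0447; 0.0583 over 18 mice).

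Myo1f (chromosome 17, 33555707-33607764, plus strand), a myosin of leukocytes, was 4.11, 4.98, 7.10 and 4.63 FPKM in NormMg-LFD mice and 4.57, 7.89, 5.82, 9.31 and 6.30 in LowMg-LFD mice. It was 63.3, 44.5, 61.2, 60.3 and 44.3 FPKM in NormMg-HFD mice and 34.7, 34.8, 10.5, 10.6 and 14.6 in LowMg-HFD mice. The 4 groups stood in steps, with only the LFD groups overlapping, and the interaction was -1.83 ± 0.42 (adjusted p = 0.0447; 0.0591 over 18 mice). Tbca (chromosome 13, 94788910-94842922, plus strand), a chaperone of tubulin folding, had a small and even difference and was called in 9 of the 19 fits. It was 58.4 to 64.5 FPKM in NormMg-LFD, 61.8 to 70.0 in LowMg-LFD, 77.1, 72.9, 84.0, 79.3 and 79.3 in NormMg-HFD and 56.8, 59.7, 53.9, 61.3 and 62.9 in LowMg-HFD mice. LowMg-HFD mice thus lay at or just below the LFD level, with an interaction of -0.51 ± 0.09 (adjusted p = 0.0343 over 19 and 0.0347 over 18 mice).

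Further genes below 0 by the size of the interaction included 3 that are known from myeloid cells. C5ar1, the receptor of complement C5a, stood at 58.8 ± 17.9 FPKM (SD, n = 5) in NormMg-HFD and 20.9 ± 8.41 (n = 5) in LowMg-HFD mice, and at 7.64 ± 1.46 and 8.91 ± 2.64 in NormMg-LFD (n = 4) and LowMg-LFD mice (n = 5). Lcp1, which bundles actin in leukocytes, stood at 183 ± 35.9 and 71.9 ± 36.6 FPKM on the HFD and at 25.1 ± 3.10 and 28.5 ± 6.52 on the LFD in the same order. In both of these, low Mg2+ went with a lower mean on the HFD and a slightly higher mean on the LFD. Their interactions were -1.66 (C5ar1) and -1.61 (Lcp1), that of Clec4a2, a lectin receptor of myeloid cells, was -1.67, that of Hmga1, an architectural chromatin protein, -1.80, and that of Igf2bp2, an mRNA-binding protein, -1.78. Hmga1 has near-identical copies in the genome, and the sharing of reads among them makes its FPKM uncertain. Over 18 mice all 5 had estimates of the same sign and adjusted p values of 0.0563 to 0.0591.

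**Figure D3:**
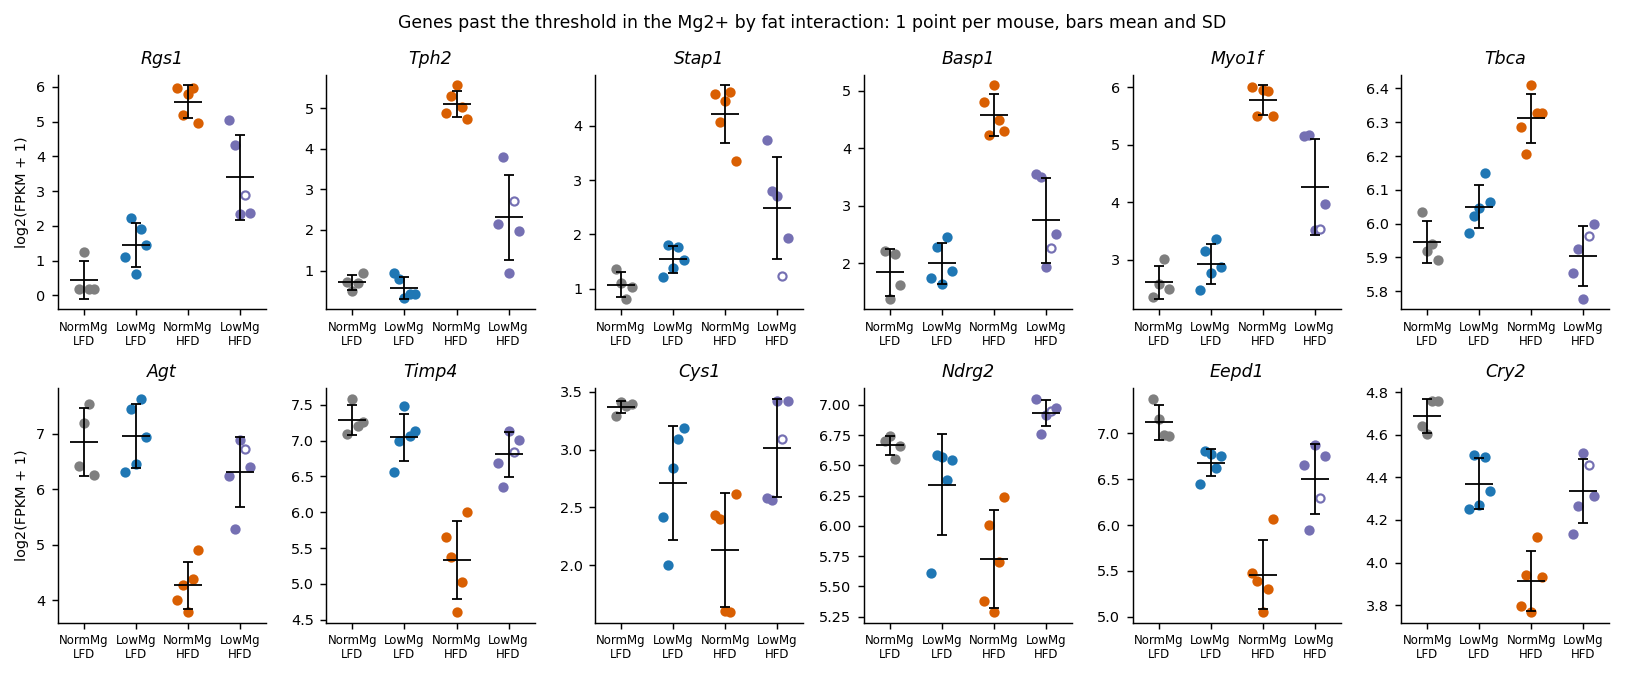
Level of 12 genes past the interaction threshold, as log2(FPKM + 1) on the y axis of each panel, by diet group on the x axis. Points are mice, the open point is LowMg-HFD replicate 4, and bars are the mean and SD; axes differ between panels and do not start at 0. In the upper row LowMg-HFD means lie below NormMg-HFD means, and in the lower row above them, with smaller differences between the LFD groups.

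Of the 41 genes above 0, 40 had a lower mean in NormMg-HFD than in NormMg-LFD mice, and Agt had the largest interaction among them. Larger estimates of 6 genes, from 2.01 (Nnat) to 3.71 (Gm10181), did not pass (adjusted p = 0.0715 to 0.481). Agt (chromosome 8, 124556534-124569706, minus strand), the angiotensin precursor that adipocytes also secrete, was 84.4, 145, 184 and 75.2 FPKM in NormMg-LFD replicates 2 to 5 and 78.1, 173, 86.7, 197 and 122 in LowMg-LFD mice. In NormMg-HFD mice it was 15.1, 18.3, 12.8, 19.9 and 28.9 FPKM, and in LowMg-HFD mice 74.3, 37.9, 117, 104 and 83.8. The HFD groups did not overlap, and 3 of the 5 LowMg-HFD mice lay within the LFD range. The interaction was 1.93 ± 0.47 (adjusted p = 0.0495; 1.82 and 0.0626 over 18 mice).

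Timp4 (chromosome 6, 115241892-115252205, minus strand), an inhibitor of metalloproteinases, was 136, 192, 146 and 152 FPKM in NormMg-LFD, 93.5, 126, 177, 133 and 140 in LowMg-LFD, 49.6, 40.5, 23.4, 31.6 and 63.1 in NormMg-HFD, and 102, 80.6, 140, 114 and 128 in LowMg-HFD mice. Every NormMg-HFD mouse was below every other mouse, with an interaction of 1.71 ± 0.32 (adjusted p = 0.0343; 1.70 and 0.0372 over 18 mice).

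Cys1 (chromosome 12, 24665833-24681813, minus strand), which encodes a protein of primary cilia, was 8.81, 9.66, 9.39 and 9.53 FPKM in NormMg-LFD, 4.33, 3.01, 6.18, 7.52 and 8.11 in LowMg-LFD, 4.40, 4.28, 2.03, 2.02 and 5.12 in NormMg-HFD and 4.98, 4.91, 9.70, 7.52 and 9.73 in LowMg-HFD mice. Here the groups overlapped except that NormMg-LFD mice stood above all mice of LowMg-LFD and NormMg-HFD, and the part of the interaction on the LFD was -0.66 against 0.89 on the HFD. The interaction was 1.55 ± 0.37 (adjusted p = 0.0495; 0.0591 over 18 mice).

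Ndrg2, Eepd1, Cry2 and Plpp6 were called in 10 of the 19 fits, the most of any gene. Ndrg2 (chromosome 14, 51905271-51914158, minus strand), a stress-responsive member of the N-myc downstream-regulated family, was 103, 106, 92.8 and 100.45 FPKM in NormMg-LFD and 48.0, 95.3, 94.2, 82.4 and 92.5 in LowMg-LFD mice. It was 40.7, 63.4, 38.1, 51.0 and 74.7 FPKM in NormMg-HFD and 132, 107, 120.1, 123 and 124 in LowMg-HFD mice, every one of which was above all other mice. LowMg-LFD replicate 1 stood apart from its group, and the interaction was 1.53 ± 0.26 (adjusted p = 0.0343; 1.53 and 0.0347 over 18 mice). Eepd1 (chromosome 9, 25481547-25604110, plus strand), of the endonuclease-phosphatase family, was 165, 141, 125 and 124 FPKM in NormMg-LFD, 86.0, 110.4, 108, 97.7 and 107 in LowMg-LFD, 43.7, 41.0, 32.2, 38.4 and 65.9 in NormMg-HFD, and 99.3, 60.5, 116, 77.5 and 107 in LowMg-HFD mice. The HFD groups overlapped in 1 mouse of each, and the interaction was 1.48 ± 0.25 (adjusted p = 0.0343; 1.53 and 0.0347 over 18 mice).

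Cry2 (chromosome 2, 92403646-92434043, minus strand), a repressor of the circadian clock, was 23.9, 23.3, 26.1 and 26.1 FPKM in NormMg-LFD, 18.02, 21.7, 18.3, 21.5 and 19.2 in LowMg-LFD, 12.9, 14.4, 12.6, 16.4 and 14.3 in NormMg-HFD, and 16.6, 18.3, 21.8, 20.97 and 18.8 in LowMg-HFD mice. Low Mg2+ thus went with a lower level on the LFD and a higher level on the HFD, without overlap in either pair, and the interaction was 0.74 ± 0.13 (adjusted p = 0.0343; 0.71 and 0.0372 over 18 mice). The time of day at which each mouse was killed was not in the labels. Plpp6 (chromosome 19, 28963953-28966811, plus strand), a phosphatase of isoprenoid and lipid phosphates, was 18.1, 19.6, 18.99 and 13.8 FPKM in NormMg-LFD, 15.6, 16.7, 14.99, 15.7 and 14.9 in LowMg-LFD, 7.51, 8.40, 6.36, 8.29 and 8.82 in NormMg-HFD and 11.6, 11.6, 13.9, 14.1 and 14.1 in LowMg-HFD mice. The HFD groups did not overlap, and the interaction was 0.82 ± 0.16 (adjusted p = 0.0343; 0.80 and 0.0372 over 18 mice).

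The other genes with large values above 0 were of mixed function. Abat, which breaks down the transmitter GABA, was 24.7 ± 1.53 FPKM in LowMg-HFD (n = 5) and 10.4 ± 4.24 in NormMg-HFD mice (n = 5), and 13.4 ± 2.27 and 14.7 ± 4.27 in LowMg-LFD (n = 5) and NormMg-LFD mice (n = 4). Apcdd1, an inhibitor of Wnt signalling, was 63.9 ± 14.1 and 27.8 ± 8.40 FPKM on the HFD and 69.4 ± 7.88 and 76.4 ± 10.4 on the LFD in the same order. Abat was thus highest in LowMg-HFD mice, whereas Apcdd1 was lowest in NormMg-HFD mice. The interactions were 1.35 for Abat, 1.35 for the pseudokinase gene Nrbp2, 1.33 for Apcdd1, 1.31 for the rhomboid-like gene Rhbdl1, 1.30 for Smim1, which encodes a small membrane protein, and 1.21 for Echdc2, which encodes an enoyl-CoA hydratase-like protein. Of these, Apcdd1 passed also over 18 mice (1.43, adjusted p = 0.0347), and the others had adjusted p values of 0.0541 to 0.0604.

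Calls lay on both sides of genes of one complex. Just inside the threshold were C1qc, Elmo2, an engulfment adaptor, and Trim3, a ubiquitin ligase, each with an adjusted p of 0.0495. Just outside were Wdr6, C1qa and Dhrs7b, each at 0.0502. C1qb (-1.33 ± 0.32), C1qc (-1.29 ± 0.32) and C1qa (-1.05 ± 0.26) encode the 3 chains of complement C1q, which tissue macrophages make, so that the threshold ran through the members of 1 complex.

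Gene lists were written for 42 cell types, pathways and complexes, with results of these data known, and are described by counts and medians with no test of a list. They hold 836 genes, of which 610 were tested and 20 were called (3.28%, against 1.25% of all genes tested). Over all 8336 genes the median interaction was 0.01 (quartiles -0.20 and 0.22), and 364 genes had an estimate beyond 1 log2 unit in either direction, 129 above and 235 below 0. For 80.06% of the genes the 95% confidence interval of the interaction lay within 1 log2 unit of 0. Genes that stand high in 1 group only can pass the filter through that group alone, and counts over tested members are to be read with that limit.

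**Figure D4:**
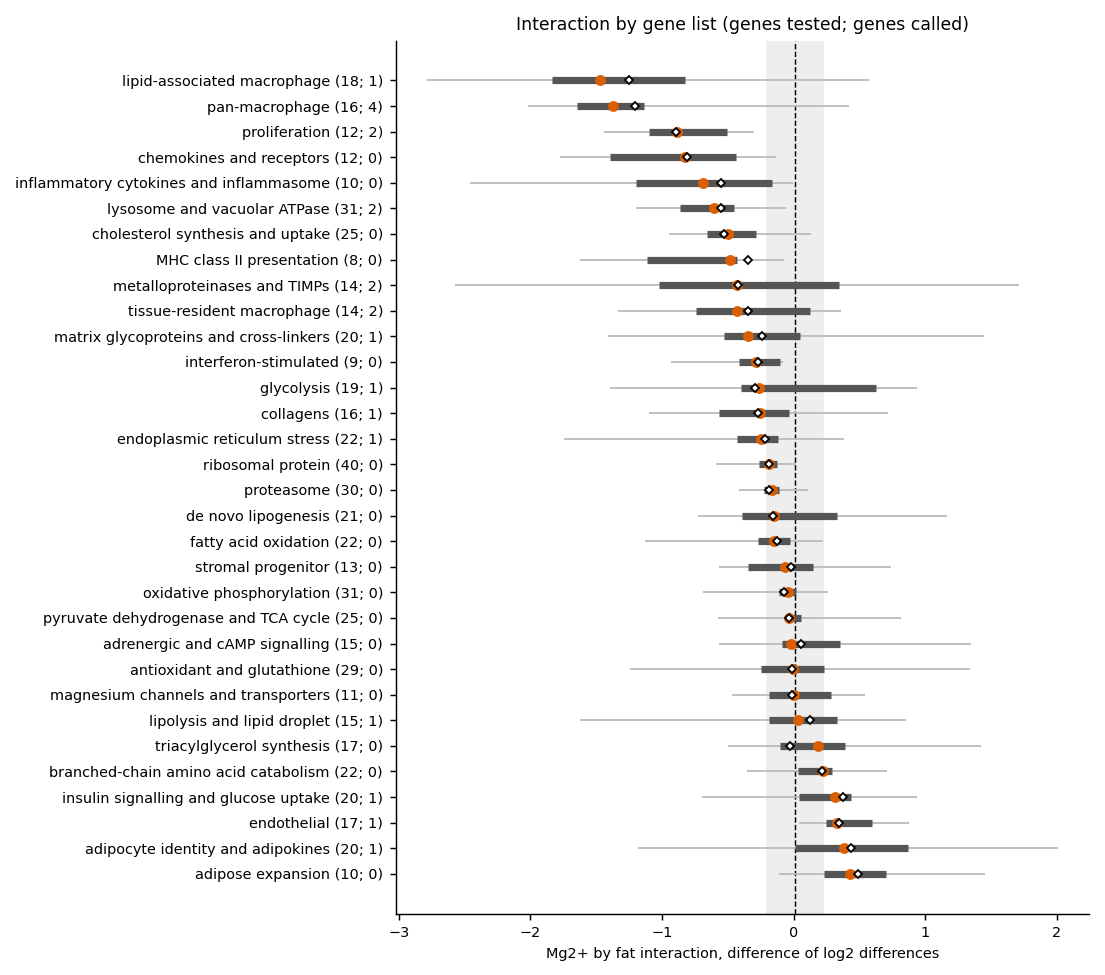
Interaction (x axis, difference of log2 differences) in the lists with at least 8 tested genes. Orange points are medians over 19 mice, open diamonds over 18, thick bars quartiles and thin lines the range; in brackets stand the genes tested and called. The grey band holds the quartiles of all 8336 genes (-0.20 to 0.22), the dashed line their median (0.01), and the lowest median is that of lipid-associated macrophage genes (-1.47).

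Among lists with at least 8 tested genes, lipid-associated and pan-macrophage genes had the lowest medians. Of 16 tested pan-macrophage genes, 4 passed the threshold, all below 0, where 0.756% of all genes tested passed: Adgre1 (the F4/80 antigen), Fcgr3 and Fcer1g (an Fc receptor and its signalling chain) and Ptprc (CD45, the common leukocyte antigen). Adgre1 was 14.8, 12.1, 14.5 and 14.1 FPKM in NormMg-LFD replicates 2 to 5 and 11.4, 16.2, 14.0, 17.3 and 16.5 in LowMg-LFD mice. It was 136, 104.5, 135, 113 and 74.2 FPKM in NormMg-HFD mice and 70.2, 57.8, 23.6, 18.9 and 29.1 in LowMg-HFD mice, above the LFD mice and below the NormMg-HFD mice. Interactions were -1.72 ± 0.39 (Adgre1, adjusted p = 0.0447), -1.46 ± 0.33 (Fcgr3, 0.0447), -1.43 ± 0.33 (Fcer1g, 0.0461) and -1.20 ± 0.29 (Ptprc, 0.0495). Over 18 mice they were -1.51, -1.33, -1.27 and -1.05 with adjusted p values of 0.0583 to 0.0591.

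The median interaction over the 16 genes was -1.37 (-1.20 over 18 mice), and 14 had an unadjusted p under 0.05, all below 0 (20.4% of all genes tested in either direction). Their median effect of low Mg2+ was -1.22 on the HFD and 0.08 on the LFD, and the median fat response was 2.24 on normal and 0.79 on low Mg2+. Of the 16, 12 passed the filter in all 4 groups, with the same median of -1.37, and 2 passed it only in NormMg-HFD mice. Averaged over the list, LowMg-HFD replicates 1 to 5 stood at 5.84, 5.74, 4.85, 4.69 and 5.07 log2(FPKM + 1), and replicate 4, with testis transcripts, was the lowest.

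Of 18 tested genes of lipid-associated macrophages, cells that take up lipid in obese fat, 1 passed, Plin2, and 15 had an unadjusted p under 0.05 below 0 and 1 above it, where 0.756% of all genes tested passed below 0 and 20.4% had an unadjusted p under 0.05 in either direction. Plin2, a coat protein of lipid droplets that other cells also express, was 191, 240, 164 and 211 FPKM in NormMg-LFD replicates 2 to 5 and 359, 200.45, 322, 185 and 252 in LowMg-LFD mice. It was 1017, 663, 1052, 868 and 637 FPKM in NormMg-HFD and 554, 539, 261, 299 and 388 in LowMg-HFD mice, and the HFD groups did not overlap. The interaction was -1.44 ± 0.33 (adjusted p = 0.0447; -1.34 and 0.0591 over 18 mice). The median over the list was -1.47 (-1.25 over 18 mice), and -0.95 over the 11 genes that passed the filter in all 4 groups. The largest estimate, chosen after its value was seen, was that of Atp6v0d2, a proton pump subunit of macrophages and osteoclasts, at -2.78 ± 0.72 (adjusted p = 0.0551).

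Tissue-resident macrophage genes were mixed. Of 14 tested, C1qb and C1qc passed below 0 (0.756% of all genes tested), 9 were below and 5 above 0 (4075 and 4261 of all 8336), and the median was -0.43 (-0.35 over 18 mice). C1qb was 94.6 to 109 FPKM in NormMg-LFD and 79.6 to 169 in LowMg-LFD mice, and 463, 413, 572, 412 and 295 in NormMg-HFD and 286, 260, 179, 119 and 163 in LowMg-HFD mice. The HFD groups did not overlap.

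Lysosome and vacuolar ATPase genes, which run the acidic digestion of taken-up material, were below 0 in 31 of 31 tested members (4075 of all 8336). Of the 31, 27 had an unadjusted p under 0.05, against 20.4% of all genes tested in either direction. Atp6v1a and Atp6ap1, a catalytic and an accessory subunit of the proton pump, passed the threshold, where 0.756% of all genes passed below 0. Atp6v1a was 29.7 ± 1.73 FPKM in NormMg-LFD (n = 4), 29.8 ± 1.79 in LowMg-LFD, 73.2 ± 11.4 in NormMg-HFD and 40.4 ± 11.6 in LowMg-HFD mice (n = 5 each), with an interaction of -0.88 ± 0.21 (adjusted p = 0.0495), and that of Atp6ap1 was -0.60 ± 0.15 (0.0495). Both had an adjusted p of 0.0626 over 18 mice. The median over the list was -0.61 (-0.55 over 18 mice), and -0.59 over the 28 genes that passed the filter in all 4 groups. The sign was shared by the whole list, with 2 calls.

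**Figure D5:**
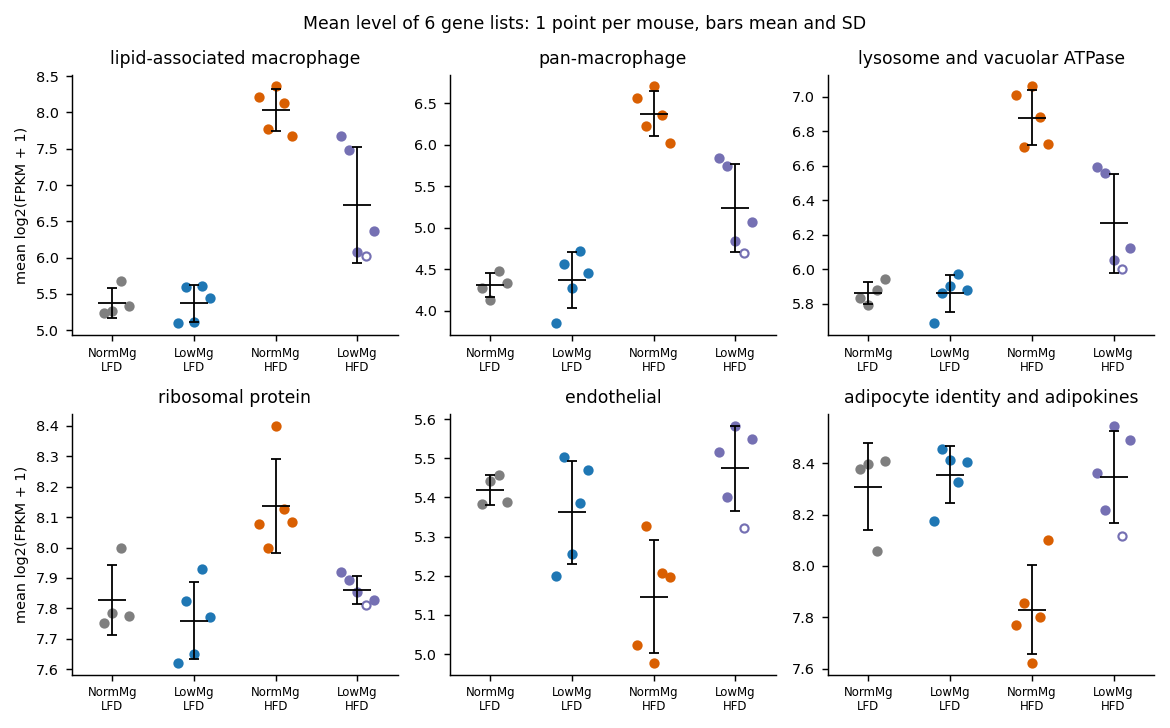
Mean log2(FPKM + 1) over the tested genes of 6 lists (y axis) by diet group (x axis). Points are mice, the open point is LowMg-HFD replicate 4, and bars are the mean and SD; axes do not start at 0. In the macrophage and lysosome panels all LowMg-HFD mice lie below all NormMg-HFD mice, with replicates 1 and 2 the nearest to them.

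Other immune lists had no call, where 1.25% of all genes tested passed. The 12 tested chemokine and receptor genes, of 22 listed, were all below 0 (4075 of all 8336), with a median of -0.83 (-0.81 over 18 mice). Of the 12, 5 passed the filter in all 4 groups, with a median of -0.63, and 2 passed it only in NormMg-HFD mice. Ccl6 and Ccl9, chemokines of myeloid cells and the list's most abundant members, had interactions of -1.35 ± 0.41 (adjusted p = 0.0802) and -1.78 ± 0.46 (0.0551). The 10 tested cytokine and inflammasome genes had a median of -0.69 (-0.32 with a filter of 1 FPKM, and -0.37 over the 4 genes that passed the filter in all groups), from -2.46 ± 0.68 for the acute-phase gene Saa3 (adjusted p = 0.0591) to -0.01 ± 0.15 for the TNF receptor gene Tnfrsf1a (0.982). The 8 MHC class II genes had a median of -0.48 (-0.35 over 18 mice, and -0.16 without the 5 mice high in genes of another tissue), with Cd74, the invariant chain, at -0.50 ± 0.24 (adjusted p = 0.245) and H2-Aa at -0.42 ± 0.24 (0.335). The 9 interferon-stimulated genes had a median of -0.29 and included Ifi27l2a at -0.24 ± 0.39 (0.768) and Bst2 at -0.42 ± 0.15 (0.136). Mast cell genes had a median of -0.92, over 3 genes that each passed the filter only in NormMg-HFD mice. Of the lymphocyte list 2 of 16 genes were tested, Ighm at 0.38 ± 0.49 and Igkc at 0.06 ± 0.75.

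Of 3 lists of the extracellular matrix, with 16, 20 and 14 tested genes, 4 genes passed (1.25% of all genes tested). Lum, which encodes lumican of collagen fibrils, was 26.2, 28.1, 35.1 and 22.4 FPKM in NormMg-LFD replicates 2 to 5, 27.4, 24.3, 32.0, 29.4 and 26.6 in LowMg-LFD, 140, 134, 132, 121 and 72.5 in NormMg-HFD and 41.5, 60.8, 33.6, 51.7 and 36.0 in LowMg-HFD mice. The LFD groups overlapped and the HFD groups did not, and the interaction was -1.41 ± 0.26 (adjusted p = 0.0343; -1.47 and 0.0347 over 18 mice), called in 9 of the 19 fits. Col3a1, a fibrillar collagen, was 285 ± 41.9, 250.2 ± 63.2, 888 ± 176 and 354 ± 55.5 FPKM in NormMg-LFD (n = 4), LowMg-LFD, NormMg-HFD and LowMg-HFD mice (n = 5 each), with an interaction of -1.10 ± 0.24 (adjusted p = 0.0447; 0.0591 over 18 mice). Its exact permutation p, unadjusted, was 0.0289 over 31752 arrangements of the Mg2+ labels within the fat levels. The null of that test is no Mg2+ effect on either diet, not equal effects on both. Adam12, a metalloproteinase, passed below 0 (-1.04 ± 0.24, adjusted p = 0.0460; 0.0583 over 18 mice) and Timp4, above, passed on the other side.

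The medians were -0.26 over 16 collagens, -0.35 over 20 glycoproteins and cross-linkers and -0.43 over 14 metalloproteinases and TIMPs (-0.15 over the 9 that passed the filter in all 4 groups), with members on both sides of 0 in each. Timp1, an inhibitor like Timp4, had an estimate of the opposite sign, -2.57 ± 0.71 (adjusted p = 0.0602), a gene chosen after its value was seen. Of 12 tested proliferation genes Mcm5, of the replicative helicase, and Pcna, the clamp of the DNA polymerase, passed, at -1.09 ± 0.25 (adjusted p = 0.0460; 0.0591 over 18 mice) and -0.87 ± 0.21 (0.0490; 0.0604 over 18 mice), where 0.756% of all genes tested passed below 0. All 12 were below 0 (4075 of all 8336) with a median of -0.88, and 8 of the 12 passed the filter only in NormMg-HFD mice.

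Lists of adipocyte identity, adipose expansion and insulin signalling had medians above 0, with members on both sides of 0 in each. Of 20 tested identity genes and adipokines, Agt passed (0.492% of all genes tested passed above 0) and 15 were above 0 (4261 of all 8336). Their median was 0.38 (0.43 over 18 mice, and 0.65 without the 5 mice high in genes of another tissue). The median effect of low Mg2+ on them was 0.41 on the HFD and 0.08 on the LFD. Cfd (adipsin), chosen after its value was seen, was at 1.91 ± 0.47 (adjusted p = 0.0516), and Nnat at 2.01 ± 0.59 (0.0715). The 10 tested genes linked to adipose expansion had a median of 0.43 and no call (1.25% of all genes tested passed). Among the 10 was Cav1, the coat of caveolae, at 0.41 ± 0.16 (0.148). In the insulin signalling list the median was 0.31 over 20 genes, and the 1 call was on the other side, where 0.756% of all genes tested passed. This was Igf1, an insulin-like growth factor that macrophages and other stromal cells also make. Igf1 was 88.6, 102, 84.1 and 96.4 FPKM in NormMg-LFD replicates 2 to 5, 111, 121, 99.7, 125 and 110.0 in LowMg-LFD, 119, 112, 136, 107 and 102 in NormMg-HFD and 81.8, 99.99, 85.99, 79.9 and 83.9 in LowMg-HFD mice. Its level was higher with low Mg2+ on the LFD, with overlap in 1 mouse of each group, and lower on the HFD without overlap, and the interaction was -0.70 ± 0.13 (adjusted p = 0.0343; -0.67 and 0.0372 over 18 mice).

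Among 11 tested genes that the study also assayed by quantitative PCR, 9 of them in eWAT and Cd36 and Acadl in other tissues, there was no call. Of all genes tested 1.25% passed. Adrb3, the beta-3 adrenergic receptor, was 597, 672, 358 and 408 FPKM in NormMg-LFD replicates 2 to 5, 582, 532, 469, 457 and 612 in LowMg-LFD, 122, 62.1, 67.9, 58.4 and 124 in NormMg-HFD and 231, 117, 392, 139 and 398 in LowMg-HFD mice. The HFD groups overlapped, and the interaction was 1.35 ± 0.45 (adjusted p = 0.102; 1.52 and 0.0764 over 18 mice). The lipase genes Lipe, Pnpla2 and Mgll had interactions of 0.62 ± 0.21 (0.0988), 0.24 ± 0.22 (0.566) and 0.03 ± 0.16 (0.940). Pck1, of glyceroneogenesis, had 1.42 ± 0.71 (0.263), with Pparg and Srebf1, transcription factors of fat storage, at 0.41 ± 0.25 (0.360) and 0.41 ± 0.16 (0.158). Genes of fatty acid uptake and oxidation lay below 0: Cd36 at -0.21 ± 0.15 (0.472), Acadl at -0.23 ± 0.13 (0.312), Cpt2 at -0.27 ± 0.18 (0.425) and Slc25a20 at -0.31 ± 0.16 (0.260). The 95% interval ran from 0.19 to 1.05 for Lipe and from -0.21 to 0.70 for Pnpla2, so that a p above the threshold does not show equal Mg2+ effects on both diets.

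Lists of lipid and energy metabolism had medians between -0.26 and 0.22, some over members that lay on both sides of 0. An unadjusted p under 0.05 was found for 10 of 19 glycolysis genes, 5 above and 5 below 0, and for 6 of 15 lipolysis and lipid droplet genes, 3 on each side, against 20.4% of all genes tested. The median was 0.03 over 15 lipolysis and lipid droplet genes, of which Plin2 was called below 0 (0.756% of all genes tested). It was -0.02 over 15 adrenergic and cAMP genes (0.06 over 18 mice, and 0.15 over the 13 that passed the filter in all 4 groups). Over 17 triacylglycerol synthesis genes the median was 0.18 (-0.03 over 18 mice). It was -0.15 over 21 lipogenesis genes (-0.31 to -0.04 with 1 mouse left out), with Scd1, a desaturase, at 0.62 ± 0.27 (adjusted p = 0.205) and Fasn, fatty acid synthase, at -0.15 ± 0.46 (0.886). Fatty acid oxidation (22 genes, -0.15), the TCA cycle (25 genes, -0.03) and oxidative phosphorylation (31 genes, -0.04) had no call, where 1.25% of all genes tested passed. With 1 mouse left out these medians ran from -0.18 to -0.08, from -0.07 to 0.08 and from -0.08 to 0.006. In the last list the fat response was -0.26 on normal and -0.30 on low Mg2+ (medians), nearly the same. Branched-chain amino acid catabolism had a median of 0.22 over 22 genes, with Ivd at 0.71 ± 0.23 (0.0960) and Aldh6a1 at 0.57 ± 0.19 (0.105), both dehydrogenases of that pathway. Glycolysis had a median of -0.26 over 19 genes (-0.13 after quantile normalization) and 1 call, where 0.756% of all genes tested passed below 0. This was Pgam1, phosphoglycerate mutase, at -0.40 ± 0.09 (0.0464; 0.0591 over 18 mice), the smallest called estimate, and reads of Pgam1 can be shared with its processed copies.

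Sterol genes were low on the list without a call, where 1.25% of all genes tested passed. The 25 tested genes of cholesterol synthesis and uptake had a median of -0.50 (-0.53 over 18 mice), and 23 were below 0 (4075 of all 8336). Their median fat response was 0.54 on normal and 0.08 on low Mg2+. Hmgcs1, an early enzyme of the pathway, and Insig1, a sterol sensor, were the most abundant, at -0.20 ± 0.30 (adjusted p = 0.761) and -0.29 ± 0.51 (0.791). The 4 tested thermogenic genes had a median of -0.32, -0.33 over 18 mice with the same filter and 0.04 over 18 mice with the log2 filter of 3, with Slc36a2, a transporter of brown and beige adipocytes, at -0.83 ± 0.28 (0.101) and Cox8b at -0.69 ± 0.46 (0.418).

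Genes of protein synthesis and quality control differed from list to list. Of 40 ribosomal protein genes, which share reads with many processed copies, none was called (1.25% of all genes tested were). Below 0 were 39 (4075 of all 8336), with a median of -0.19 (-0.18 over 18 mice). After quantile normalization of the mice this median was -0.06. Rplp1 and Rps19 were at -0.17 ± 0.16 (adjusted p = 0.563) and -0.07 ± 0.12 (0.788). The 30 proteasome genes had a median of -0.17, with Psme2 at -0.15 ± 0.13 (0.529) and Psmb6 at -0.29 ± 0.15 (0.275). Both medians lie inside the quartiles of all genes. In the endoplasmic reticulum list (22 genes, median -0.25, range -1.74 to 0.38) Calr, a chaperone and calcium store of that compartment, passed, at -0.68 ± 0.16 (0.0460; -0.66 and 0.0591 over 18 mice). Of all genes tested 0.756% passed below 0. The 29 antioxidant genes had a median of -0.003 and ran from -1.25 to 1.34, and 12 had an unadjusted p under 0.05, 7 above and 5 below 0, against 20.4% of all genes tested. Their most abundant members were Gpx1 at -0.35 ± 0.22 (0.398) and Mgst1 at -0.02 ± 0.17 (0.964).

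Endothelial genes were above 0 in 17 of 17 tested members (4261 of all 8336), each of which passed the filter in all 4 groups. Of the 17, 9 had an unadjusted p under 0.05 (9.37% of all genes tested above 0). Robo4, a guidance receptor of blood vessels, passed, where 0.492% of all genes passed above 0. It was 28.0, 30.1, 23.2 and 24.9 FPKM in NormMg-LFD replicates 2 to 5, 20.2, 24.6, 24.99, 26.04 and 25.6 in LowMg-LFD, 20.4, 23.5, 19.2, 21.7 and 21.8 in NormMg-HFD and 29.6, 30.3, 31.6, 25.1 and 34.0 in LowMg-HFD mice. The HFD groups did not overlap, and the interaction was 0.60 ± 0.14 (adjusted p = 0.0464; 0.66 and 0.0372 over 18 mice). The median over the list was 0.33 (0.34 over 18 mice), with fat responses of -0.20 on normal and 0.14 on low Mg2+.

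Markers of other cells moved less evenly. The 13 tested stromal progenitor genes had a median of -0.06, with Dpt at -0.10 ± 0.24 (adjusted p = 0.846) and Ly6a at -0.36 ± 0.20 (0.341). Mesothelial genes, of the lining of the fat pad, summed to 62.3 to 164.5 FPKM in NormMg-LFD, 31.9 to 140.1 in LowMg-LFD, 17.2 to 35.1 in NormMg-HFD and 26.3 to 123 in LowMg-HFD mice, and 2 of 12 were tested, Krt19 at 1.84 ± 0.61 (0.0996) and Nkain4 at 1.21 ± 0.63 (0.289). Both passed the filter only in NormMg-LFD mice, where their means were highest. The summed level of the mesothelial genes had its lowest median in NormMg-HFD mice, as did the mean level of the called genes above 0. Erythroid genes were at 0.09 ± 0.48 for Hba-a2 and 0.03 ± 0.47 for Hbb-bs, and muscle genes at 0.47 ± 0.22 for Myl1 (0.233) and -0.05 ± 0.47 for Acta1 (0.964). The tested pancreas gene Cela1 was at 0.40 ± 0.71 and the tested testis gene Odf2l at 0.32 ± 0.29. The part of these cells in the called interactions was not tested.

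None of the 11 tested genes of the 22 Mg2+ channels and transporters passed the threshold, and 3 had an unadjusted p under 0.05 (limma), against 1.25% and 20.4% of all genes tested. Their median was 0.002 (-0.013 over 18 mice). Mmgt1, listed as a membrane Mg2+ transporter, was 14.3, 13.4, 11.96 and 13.4 FPKM in NormMg-LFD replicates 2 to 5, 19.2, 15.8, 16.2, 15.6 and 15.5 in LowMg-LFD, 20.8, 18.5, 21.02, 19.4 and 19.3 in NormMg-HFD and 19.1, 19.05, 15.7, 15.4 and 17.7 in LowMg-HFD mice. It was higher with low Mg2+ on the LFD without overlap, and overlapped on the HFD, with an interaction of -0.47 ± 0.13 (adjusted p = 0.0551; 0.0734 over 18 mice). Ptp4a3, a phosphatase that binds CNNM Mg2+ transporters, was at 0.54 ± 0.16 (0.0715), and its relatives Ptp4a1 and Ptp4a2 were at 0.32 ± 0.15 (0.245) and -0.19 ± 0.12 (0.399). The channel Trpm7 was at 0.26 ± 0.18 (0.455), Cnnm2 and Cnnm3 at 0.20 ± 0.17 (0.554) and 0.30 ± 0.26 (0.540), and the mitochondrial channel Mrs2 at 0.00 ± 0.15 (0.996). Magt1, Tusc3 and Nipa2, further members of the list, were at -0.21 ± 0.17 (0.519), -0.15 ± 0.20 (0.732) and -0.19 ± 0.27 (0.746). Their 95% intervals allow interactions of up to 0.88 in size (Ptp4a3), so that at this spread small differences were not detectable.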

How the data were processed

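RNA was taken from eWAT by TRIzol, and 50 bp single-end reads were sequenced on an Illumina HiSeq instrument. Per the submitters' processing notes the authors used HISAT and Bowtie2 (versions not given in the sources used here), RSEM v1.2.31 and the mouse genome GRCm38/mm10. The authors deposited 1 table of FPKM values per gene and mouse, in which RSEM shares reads among near-identical copies, so that FPKM of ribosomal genes, Hmga1 and Pgam1 is uncertain. They also deposited total read counts and mapped percentages per library, with 12986441 to 13027028 reads each. No gene counts were used here, so that no interval from counting could be given.

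Of 24250 lines in the FPKM table, 12 held no gene and 1 gene with a cell that is not a number was left out, and 26 symbols turned into dates were restored. Coordinates came from the GRCm38 annotation. Values were analysed as log2(FPKM + 1), and folds understate the change of low genes. A gene was tested where at least 4 mice of some diet group, and the mean of that group, exceeded 8 FPKM. The model had 1 mean per diet group and shared 1 variance per gene across the 19 mice (limma 3.58.1 in R 4.3.3, with intensity trend), and p values were adjusted over all 8336 genes by Benjamini and Hochberg. Exact permutation p values are two-sided, over 31752 ways to arrange normal and low Mg2+ separately on the LFD and the HFD, and unadjusted. Their null is no Mg2+ effect on either diet, so that they do not test for equal Mg2+ effects on both. The scripts were tested on simulated data. Other steps used Python 3.11.15, pandas 2.3.3, numpy 2.4.6 and matplotlib 3.10.9.

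The comparison and the gene lists were chosen with earlier results of these data known. Named genes were the 12 largest estimates in each direction among the called genes, leaving out predicted genes, genes without a symbol and pancreas genes (1 called gene fell out). Added to these were up to 4 called members of each list, or the 2 most abundant members of a list with no call, genes that the study measured by PCR, all tested Mg2+ genes, the 3 genes on each side of the threshold and the 5 called in most fits that left out a mouse. Of the genes so named, 2 are not reported here. Alternatives were another pseudocount, other filters, median centring, quantile normalization, array weights, no intensity trend, a replicate block and leaving out each mouse. According to the study's methods a NormMg-LFD library failed quality control, and a LowMg-HFD mouse was left out for pancreatic tissue.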

Additional observations from a re-analysis of the deposited data

Results flagged for a closer look

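The effect of low Mg2+ differed between the HFD and the LFD by the interaction term (limma, adjusted p under 0.05) in 44 of the genes named above. The interactions below 0, as differences of log2 differences, were Rgs1 -3.18, Tph2 -2.66, Stap1 -2.20, Basp1 -1.99, Myo1f -1.83, Hmga1 -1.80, Igf2bp2 -1.78, Adgre1 -1.72, Clec4a2 -1.67, C5ar1 -1.655 and Lcp1 -1.615. Smaller ones were Fcgr3 -1.46, Plin2 -1.44, Fcer1g -1.43, Lum -1.41, C1qb -1.335, C1qc -1.29, Ptprc -1.20, Col3a1 -1.10, Mcm5 -1.09, Adam12 -1.04, Atp6v1a -0.88, Pcna -0.87, Igf1 -0.70, Calr -0.68, Atp6ap1 -0.60, Elmo2 -0.59, Tbca -0.51 and Pgam1 -0.40. Those above 0 were Agt 1.93, Timp4 1.71, Cys1 1.55, Ndrg2 1.53, Eepd1 1.48, Abat 1.35, Nrbp2 1.35, Apcdd1 1.325, Rhbdl1 1.31, Smim1 1.30, Echdc2 1.21, Plpp6 0.82, Cry2 0.74, Trim3 0.60 and Robo4 0.60.

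Single mice stood apart in 16 of 192 groups examined by Dixon's test (13 genes and 35 lists in 4 groups each), where chance flags about 1 in 20 groups. In log2(FPKM + 1), Rgs1 was 1.26 in NormMg-LFD replicate 3, and Ndrg2 was 5.61 in LowMg-LFD replicate 1. NormMg-HFD replicate 3 stood apart in the mean of MHC class II genes (8.39), fatty acid oxidation (6.38), insulin signalling (4.87) and the proteasome (6.26). NormMg-LFD replicate 4 did so in adipocyte identity (8.06), triacylglycerol synthesis (7.33), cholesterol synthesis (4.70) and ribosomal proteins (7.998). Interferon genes were at 5.34 in both LowMg-LFD replicate 4 and NormMg-HFD replicate 2, and oxidative phosphorylation was at 7.385 in LowMg-LFD replicate 1. LowMg-HFD replicate 3 was at 3.14 for mast cell and 9.23 for erythroid genes, and LowMg-HFD replicate 1 at 6.32 for lipogenesis.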

How the results depend on the processing

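No called gene named here changed sign under the alternatives run, which the choice of these genes on the same mice favours. The medians of some lists did change sign. Over the named genes and alternatives, 2432 values stayed on their side of the threshold, 876 no longer passed, 49 newly passed and 123, of genes not called, changed sign. The exact permutation test has no Mg2+ effect on either diet as its null, and its p is unadjusted. By it 99 genes stayed on their side and 17 not called had a p under 0.05. The number of called interactions, 104, was 664 with array weights, 347 after quantile normalization (139 above 0), 245 with median centring (86 above 0), 67 without an intensity trend, 48 with a filter of 1 FPKM, 35 over 18 mice with the log2 filter of 3 (24 above 0), 24 with a pseudocount of 0.1 (15 above 0), 2 with no filter, and 0 in both fits without mice that stood high in genes of another tissue, without 3 and without 5 mice, added once the data had been seen (limma, 1428 and 1003 with an unadjusted p under 0.05). Without the 5 mice fat on normal Mg2+ gave 1702 genes. Leaving out 1 mouse gave 0 to 476 interactions, 945 to 1642 genes for Mg2+ on the HFD and 807 to 1470 for fat on low Mg2+ (lowest without LowMg-HFD replicate 2). Mg2+ on the LFD gave 1 gene with no filter. With the replicate number as a block 0 interactions passed by limma (1576 with an unadjusted p under 0.05). The numbers gave no sign of pairing: deviations of 27 pairs of same-numbered mice correlated at -0.18 to 0.34 (median 0.003), and 3 of 19 mice correlated best with a mouse of their own number. The causes of these differences were not tested.

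Medians of some lists moved by more than the spread used as the limit. Quantile normalization gave 0.18 for lipolysis, -0.13 for glycolysis, -0.0595 for ribosomal proteins and 0.47 for the PCR genes. A filter of 1 FPKM and no filter gave -0.32 and -0.31 for cytokines and 0.18 and 0.22 for adrenergic genes, and no filter gave 0.13 for Mg2+ genes (-0.0791 with array weights). Triacylglycerol synthesis was 0.0444 over 18 mice with the log2 filter of 3 and 0.0626 with array weights, and thermogenic genes were 0.0371 in the former. Without the 3 mice, triacylglycerol synthesis was 0.0718 and adrenergic genes 0.0854. Without the 5 mice the medians were -1.02 for pan-macrophage, -0.16 for MHC class II, 0.65 for adipocyte identity, 0.147 for adrenergic, 0.40 for insulin signalling and 0.52 for the PCR genes. Leaving out 1 mouse gave -0.0380 to 0.101 for adrenergic, -0.0298 to 0.217 for triacylglycerol synthesis, 0.24 to 0.39 for insulin signalling and -0.0744 to 0.0738 for Mg2+ genes. The spread within groups, recomputed under settings likewise added later, did not move beyond its limit.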
